A study of Mus musculus with 37 samples.

Results

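Complement is a set of secreted proteins, proteases, receptors and regulators, and 10 of its genes were followed here in the hippocampus of mice that lose the histone demethylase Kdm1a from neurons. The 10 genes were C1qa, C1qb and C1qc, C1s1, C2, C4b, C3, C3ar1, C5ar1 and Serping1, chosen by name as components, receptors and regulators of the pathway. They are 10 of 48795 counted genes, and all 10 were among the 16799 genes with enough reads to be tested. RNA came from 3 Kdm1a-ifKO mice, which carry floxed Kdm1a alleles and the tamoxifen-inducible recombinase CaMKIIα-creERT2, and from 3 control littermates without the recombinase, labelled WT. Both genotypes were male, on a C57BL/6J background, and received tamoxifen at 8 weeks of age. The age at dissection is not given in the sources used here. The Camk2a promoter drives recombination in excitatory neurons of the forebrain, so glia, vessels and other neurons of a Kdm1a-ifKO hippocampus keep the gene.

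In the classical pathway, the hexamer C1q, built from A, B and C chains, recognises a target and, with the proteases C1r and C1s, cleaves C4 and C2. Their fragments form the enzyme that cleaves C3, whose larger fragment tags the target and whose smaller fragment, like that of C5, signals through an anaphylatoxin receptor. In the brain C1q is made mainly by microglia, C4 by neurons and glia, and C1q, C3 and C4 are known for tagging synapses that microglia remove.

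Libraries held between 18985542 and 19469947 counts. Values in CPM are counts brought to a common library size after TMM normalization. Control replicate 3 differed more from the other controls (chi-square per degree of freedom 7.59 and 6.56) than those did from each other (2.95). Kdm1a, counted over the whole gene with the exons outside the deleted part, stood at 1521, 1545 and 1481 counts in controls and at 764, 726 and 748 counts in Kdm1a-ifKOs. The groups did not overlap, in the direction of the labels (log2FC -1.07, standard error 0.0559, adjusted p = 6.24e-08 by the quasi-likelihood test of edgeR, Benjamini-Hochberg adjusted, which also gives the adjusted p-values below).

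Of the 10 complement genes, 1 passed an adjusted p-value of 0.05 with higher expression in Kdm1a-ifKOs, C1qb, and 0 with lower. Among all tested genes 6.04% were higher and 2.82% lower by the same rule. Unadjusted p-values under 0.05 were found for 4 of the 10, namely the 3 C1q chains and C4b, against 24.5% of all tested genes in either direction. With DESeq2, the tool the study used, 5 of the 10 were called higher (C1qa, C1qb, C1qc, C4b and Serping1) and 0 lower, against 5.12% of all genes called higher there. Without a filter on low counts edgeR called 3 higher (the C1q chains) and 0 lower, against 5.03% of all genes higher. All Kdm1a-ifKO values exceeded all control values for 3 members (C1qb, C1qc and C4b), a pattern found for 15.7% of tested genes, and the reverse held for 0 members, against 14.4% of tested genes. The log2FC was above 0 for 8 of the 10, with a median of 0.27, while the median of all tested genes was -0.0034 and 49.1% of them were above 0.

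**Figure D1:**
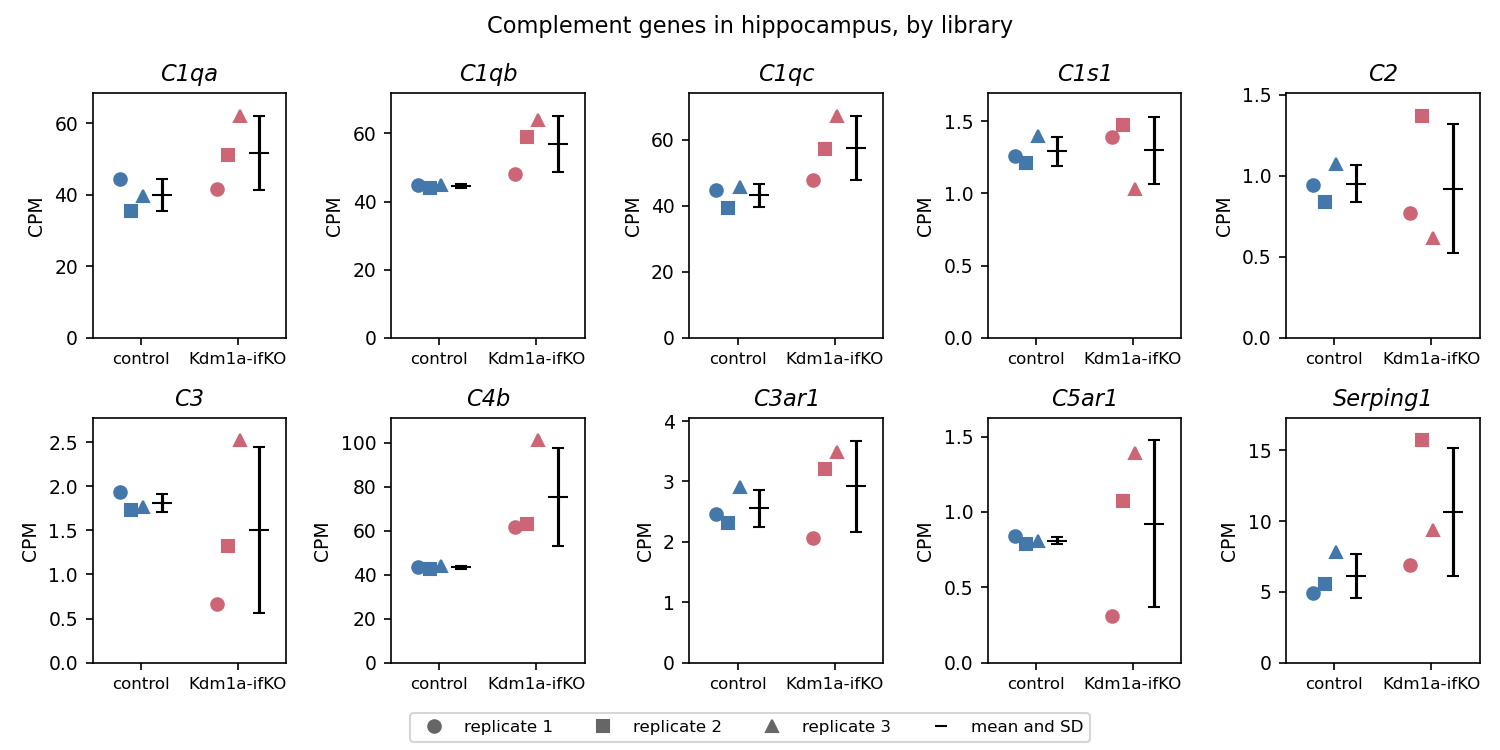
CPM (scaled counts, vertical axes from 0) of each of the 10 complement genes in the 3 control (blue) and 3 Kdm1a-ifKO (red) libraries, with the replicate number as the symbol and the mean and SD in black. The Kdm1a-ifKO points lie above all control points for C1qb, C1qc and C4b, and the spread between Kdm1a-ifKO mice exceeds that between controls for all 10 genes. Except for C1qa, C1qc and Serping1, the control spread is below the error of counting alone, so this contrast cannot be read as a difference in variability.

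The 3 chains of C1q are encoded side by side on the minus strand of chromosome 4 (GRCm38), within 18.7 kb. C1qb (ENSMUSG00000036905) runs from 136880129 to 136886187, C1qc (ENSMUSG00000036896) from 136889804 to 136893065, and C1qa (ENSMUSG00000036887) from 136895917 to 136898803. None overlaps another annotated gene. The 250 bases before the RefSeq start sites of C1qb and C1qc are shown because these neighbouring genes had a like log2FC, read 5′ to 3′ on the minus strand, with matches to the motifs listed after them in capitals. The first lies at chr4:136886201-136886450 and the second at chr4:136892915-136893164 of GRCm38.p6. The RefSeq start of C1qc lies inside the annotated extent given above, so part of its stretch is within the gene by that annotation.
C1qb: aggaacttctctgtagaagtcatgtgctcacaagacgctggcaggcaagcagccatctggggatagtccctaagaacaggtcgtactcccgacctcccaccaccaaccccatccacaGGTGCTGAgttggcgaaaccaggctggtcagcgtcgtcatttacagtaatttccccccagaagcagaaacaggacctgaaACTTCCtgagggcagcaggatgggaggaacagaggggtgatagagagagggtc
C1qc: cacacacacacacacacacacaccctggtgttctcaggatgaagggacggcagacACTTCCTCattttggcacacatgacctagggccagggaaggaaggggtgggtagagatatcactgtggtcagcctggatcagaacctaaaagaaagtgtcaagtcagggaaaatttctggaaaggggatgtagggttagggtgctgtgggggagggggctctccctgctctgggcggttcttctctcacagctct
Motifs were searched on both strands in the sequences of RefSeq start sites, of which 7 belonged to 6 of the 10 genes (C1qb, C1qc, C1s1, C3, C3ar1 and C5ar1). The C1qc stretch held the PU.1 motif GAGGAAGT on the opposite strand, its first base 195 bases before the start, as did 2.44% of 32851 such stretches in the genome. This match contains the ETS core GGAAGT, a letter string present in 19.7% of all stretches, which C1qb held 53 bases before its start and C5ar1 at 190 and 72 bases before its start. The REST core TCAGCACC, present in 1.32%, matched in C1qb (133 bases before the start) and C5ar1 (19 bases). The RefSeq start of C5ar1 also lies inside its annotated extent, and these C5ar1 matches fall within the gene by that annotation. C3ar1 held the AP-1 motif TGANTCA (6.75% of all) and the TATA box TATAAA (12.4%). The STAT motif TTCNNNGAA (7.02%), the NF-kB motif GGGACTTTC (0.289%) and the C/EBP motif TTGCGCAA (0.164%) matched in 0 of the 7. These are matches of letters and no measure of binding.

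C1qb, the B chain, stood at 45, 43.9 and 45 CPM in controls (replicates 1 to 3) and at 48.0, 59.0 and 64.1 CPM in Kdm1a-ifKOs. The control mice lay within 1.02-fold of each other, and the lowest Kdm1a-ifKO mouse was only slightly above them. The control spread, a coefficient of variation of 1.37%, was below the error of counting alone (3.44%). C1qb rose from 44.7 ± 0.612 to 57.0 ± 8.21 CPM (SD, n = 3 each), 1.28-fold (log2FC 0.35, standard error 0.0919, adjusted p = 0.0381 in edgeR's test). The call was lost without any 1 of the 3 control libraries (adjusted p = 0.0845, 0.093 and 0.115 without replicates 1, 2 and 3) and without Kdm1a-ifKO replicate 2 (0.0902) or 3 (0.112). Without Kdm1a-ifKO replicate 1 the log2FC was 0.46 and the adjusted p 0.00239.

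C1qc, the C chain, stood at 44.7, 39.2 and 45.5 CPM in controls and at 47.7, 57.2 and 67.2 CPM in Kdm1a-ifKOs. The groups did not overlap, and Kdm1a-ifKO replicate 1 was again nearest to the controls. The log2FC was 0.41 (standard error 0.121, adjusted p = 0.0771 in edgeR's test and 0.00502 in DESeq2). For C1qa, the A chain, controls held 44.4, 35.4 and 39.7 CPM and Kdm1a-ifKOs 41.6, 51.2 and 62.1 CPM. Here the groups overlapped, since Kdm1a-ifKO replicate 1 was below control replicate 1. The log2FC was 0.37 (standard error 0.155, adjusted p = 0.201 in edgeR's test and 0.0337 in DESeq2). Without Kdm1a-ifKO replicate 1, both C1qa (log2FC 0.51, adjusted p = 0.0287) and C1qc (log2FC 0.53, adjusted p = 0.0061) passed in edgeR's test. Without Kdm1a-ifKO replicate 3, C1qa fell to a log2FC of 0.22 (adjusted p = 0.34) and C1qc to 0.28 (adjusted p = 0.117).

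In all 3 chains the Kdm1a-ifKO libraries had the same order, with replicate 1 lowest and replicate 3 highest. The summed C1q signal was 377 to 428 TPM (a scaled count that is also divided by exon length) in controls and 433, 536 and 610 TPM in Kdm1a-ifKO replicates 1, 2 and 3. The make-up of this sum varied little. C1qa held 36% to 39.8% of it over the 6 libraries, C1qb 38.4% to 42.6% and C1qc 21.4% to 22.8%, and for each chain the range of one genotype overlapped that of the other.

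C1s1 (ENSMUSG00000038521, chromosome 6 from 124530345 to 124542359), the C1s protease, overlaps Gm16567 on the opposite strand and had 24, 23 and 26 counts in controls and 27, 29 and 20 in Kdm1a-ifKOs. The groups overlapped, with a log2FC of 0.01 (standard error 0.251, adjusted p = 0.987). C2 (ENSMUSG00000024371, chromosome 17 from 34862604 to 34898265), the protease part of the C3-cleaving enzyme, overlaps Gm20547 on the same strand and Zbtb12 on the other. It had 18, 16 and 20 counts in controls and 15, 27 and 12 in Kdm1a-ifKOs, with a log2FC of -0.05 (standard error 0.335, adjusted p = 0.952). At such counts, an error of counting alone of 19.9% to 23.6% (coefficient of variation) rests on each value, and differences of the size seen for C1q were not detectable.

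C4b (ENSMUSG00000073418, chromosome 17 from 34728380 to 34743882) encodes C4, the other part of that enzyme, and overlaps no annotated gene. It stood at 43.6, 42.4 and 44 CPM in controls and at 61.8, 63.2 and 101 CPM in Kdm1a-ifKOs. All Kdm1a-ifKO mice lay above all controls, and replicate 3 was far above the others. The means were 43.3 ± 0.849 and 75.5 ± 22.5 CPM (SD, n = 3 each), a 1.74-fold difference (log2FC 0.80, standard error 0.224) that missed the threshold in edgeR's test (adjusted p = 0.106) and passed it in DESeq2 (adjusted p = 0.0207). Without Kdm1a-ifKO replicate 3 the log2FC was smaller, 0.53, and passed in edgeR's test (adjusted p = 0.00029). The near-identical copy C4a had 4.03, 3.83 and 3.98 CPM in controls and 5.45, 3.76 and 4.47 CPM in Kdm1a-ifKOs (log2FC 0.21, standard error 0.168, adjusted p = 0.487). How reads shared by both copies were split is uncertain, though the filter on mapping quality removes reads that align equally well to both.

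C3 (ENSMUSG00000024164, chromosome 17 from 57203970 to 57228136), the component on which all routes of activation meet, shares its strand with the overlapping microRNA gene Mir6978. Its counts were 37, 33 and 33 in controls and 13, 26 and 49 in Kdm1a-ifKOs. The Kdm1a-ifKO libraries lay on both sides of the controls, with replicate 1 lowest and replicate 3 highest, 3.76-fold apart in CPM. The log2FC was -0.27 (standard error 0.379, adjusted p = 0.716), and without Kdm1a-ifKO replicate 1 it was 0.08.

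C3ar1 and C5ar1 encode receptors for the small fragments of C3 and C5. C3ar1 (ENSMUSG00000040552, chromosome 6 from 122847138 to 122856161) had 47, 44 and 54 counts in controls and 40, 63 and 68 in Kdm1a-ifKOs (log2FC 0.19, standard error 0.219, adjusted p = 0.647). C5ar1 (ENSMUSG00000049130, chromosome 7 from 16246743 to 16259540) had 16, 15 and 15 counts in controls and 6, 21 and 27 in Kdm1a-ifKOs (log2FC 0.18, standard error 0.425, adjusted p = 0.837). In both receptor genes the groups overlapped, replicate 1 was the lowest Kdm1a-ifKO library and replicate 3 the highest, the order seen for C1q, C4b and C3. Without Kdm1a-ifKO replicate 3 the log2FC of C5ar1 was -0.23 and that of C3ar1 0.04, and without replicate 1 that of C3ar1 was 0.39, with adjusted p-values of 0.304 or more.

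Serping1 (ENSMUSG00000023224, chromosome 2 from 84765387 to 84775444) encodes C1 inhibitor, which blocks C1r and C1s. It stood at 4.92, 5.57 and 7.85 CPM in controls and at 6.89, 15.7 and 9.40 CPM in Kdm1a-ifKOs. The groups overlapped, and replicate 2 was the highest, not replicate 3. The means were 6.11 ± 1.54 and 10.7 ± 4.53 CPM (SD, n = 3 each), 1.75-fold (log2FC 0.80, standard error 0.35, adjusted p = 0.23 in edgeR's test and 0.0199 in DESeq2). Without Kdm1a-ifKO replicate 2 the log2FC was 0.41 (adjusted p = 0.258).

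**Figure D2:**
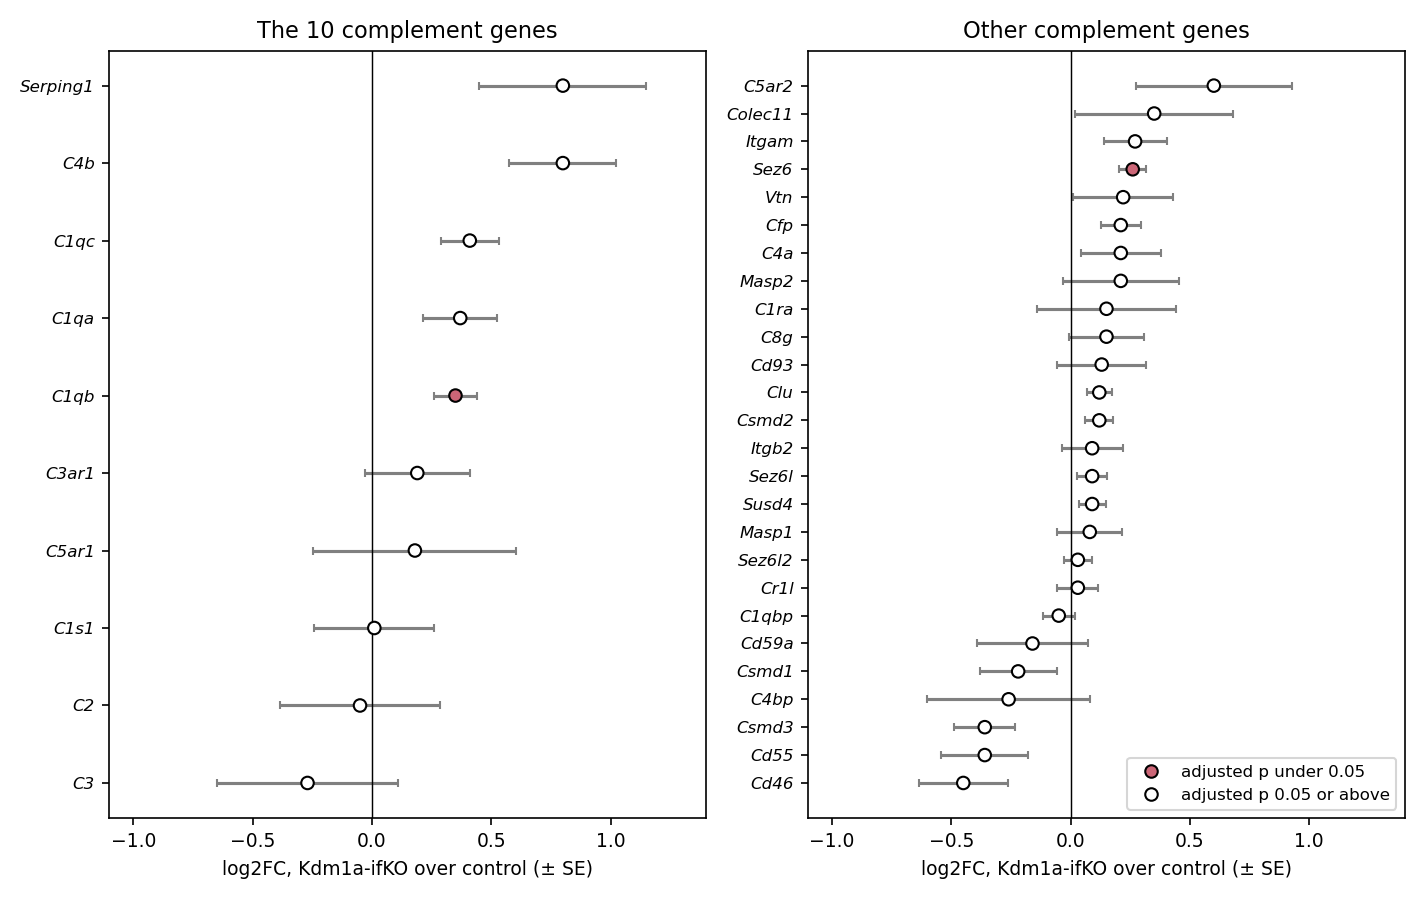
log2FC of Kdm1a-ifKO over control (horizontal axis, bars are standard errors, n = 3 mice each) for the 10 complement genes on the left and for 26 of the 27 other complement genes tested on the right, filled where the adjusted p-value was under 0.05. C1qb on the left and Sez6 on the right are filled, and C4b and Serping1 have the highest log2FC, 0.80 each, with standard errors of 0.224 and 0.35.

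Levels between genes were compared as TPM. In controls C1qb was highest (163 ± 2.32 TPM, SD, n = 3), followed by C1qa (152 ± 17.5), and the control ranges of this pair overlapped. C1qc stood at 88.8 ± 7 TPM, C4b at 30.2 ± 0.576 TPM and Serping1 at 10.4 ± 2.59 TPM, each with control values apart from those of its neighbours in the order. C3ar1 followed at 2.36 ± 0.277 TPM, C1s1 at 1.63 ± 0.121, C3 at 1.4 ± 0.0872, C5ar1 at 1.25 ± 0.0419 and C2 at 0.977 ± 0.119 TPM. The control values of the last 4 did not overlap between neighbours, but the lowest of C1s1 (1.53 TPM) was next to the highest of C3 (1.5 TPM), and the counting error of these genes, 17.1% to 25.5% per library, was larger than such gaps. The order of these 4 could not be resolved. Transcripts of C1q were the most abundant of the 10, and those of C3, the protein that C1q leads to, were near the bottom.

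**Figure D3:**
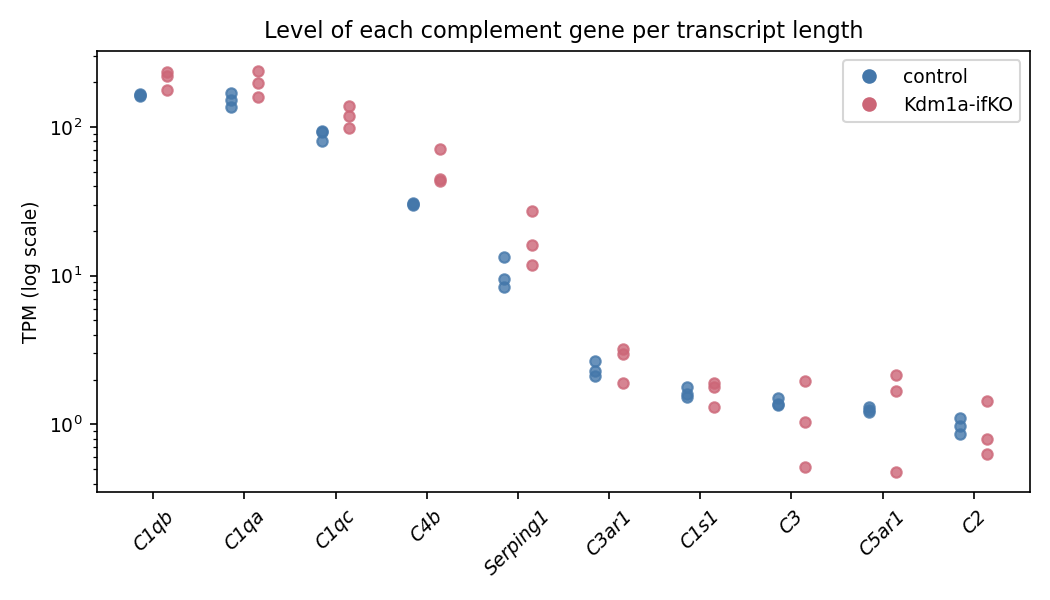
TPM (scaled counts per exon length, log axis) of the 10 complement genes in each control (blue) and Kdm1a-ifKO (red) library, ordered by the control mean from C1qb (163) to C2 (0.977). The C1q chains and C4b lie above 29 TPM in every library, and the 5 genes on the right lie between 0.478 and 3.23 TPM.

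A further 48 complement genes were listed by role, of which 27 were tested. Of these, 1 was higher at an adjusted p-value under 0.05 and 0 were lower in edgeR's test, with 5 at an unadjusted p under 0.05. By these rules 6.04% of all tested genes were higher, 2.82% were lower and 24.5% had such an unadjusted p, so the 27 were not richer in calls. The median log2FC of the 27 was 0.12, against -0.0034 for all tested genes. Of the 27, 20 were above 0, against 49.1% of all tested genes. The gene called was Sez6, a neuronal membrane protein of the synapse known to limit complement in cell assays, at 265, 273 and 241 CPM in controls and 318, 310 and 303 CPM in Kdm1a-ifKOs. It rose by a log2FC of 0.26 (standard error 0.0556, adjusted p = 0.0118), a call lost without Kdm1a-ifKO replicate 1. Its relatives Sez6l (0.09) and Sez6l2 (0.03) had a log2FC near 0.

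Among the other genes of initiation, 5 of 12 were tested and 0 were called, with log2FC from 0.08 (Masp1) to 0.35 (Colec11). C1ra, the C1r protease, had a log2FC of 0.15 (adjusted p = 0.794). In the alternative pathway, properdin (Cfp) was the 1 of 3 genes tested, with 22.0, 18.8 and 22.1 CPM in controls and 24.8, 22.5 and 25.4 CPM in Kdm1a-ifKOs (log2FC 0.21, standard error 0.0847, adjusted p = 0.151). Factor B (Cfb) had 19 counts in all controls together and 15 in all Kdm1a-ifKOs together, and factor D (Cfd) had 0 in all. Of the 7 terminal genes 1 was tested, C8g (log2FC 0.15, adjusted p = 0.601). C5 itself (Hc) had 16 and 21 counts over the groups, and C6, C7, C8a, C8b and C9 between 0 and 29, so that most genes of the membrane attack complex were near or under the limit of detection.

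Of the 8 other receptor genes 5 were tested, from C1qbp (log2FC -0.05) to C5ar2 (0.60, standard error 0.326, adjusted p = 0.285). Itgam and Itgb2, the chains of complement receptor 3 through which microglia bind tagged synapses, had a log2FC of 0.27 (adjusted p = 0.224) and 0.09 (adjusted p = 0.712). Of the 18 regulators 15 were tested, and Cd46 had the lowest log2FC (-0.45, adjusted p = 0.176). Csmd3, a large membrane protein with complement-control domains, missed the threshold (log2FC -0.36, standard error 0.127, adjusted p = 0.117). It was the 1 tested regulator with all Kdm1a-ifKO libraries (22.2, 24.5 and 23.8 CPM) below all controls (26.5, 26.9 and 37.2 CPM). Of the 27 other complement genes tested, 1 had this pattern and 3 the reverse, against 14.4% and 15.7% of all tested genes.

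The hippocampus was sequenced as bulk tissue, so more cells of a type and more RNA per cell cannot be told apart. Markers of microglia moved with the C1q genes. All 21 listed microglia genes were tested, 21 had a log2FC above 0 (median 0.31), and 8 were higher and 0 lower at an adjusted p-value under 0.05. Among all tested genes 6.04% were higher and 2.82% lower by this rule, shares that also stand beside the counts of the other cell type lists below. The 8 were Fcgr3, an IgG receptor (log2FC 1.19), Ly86 (0.44), Tmem119 (0.42), Laptm5 (0.41), Selplg (0.40), Csf1r, the receptor that keeps microglia alive (0.33), Siglech (0.32) and Cx3cr1, the fractalkine receptor (0.27). The lowest log2FC of the list was that of Fcrls (0.11). None of the 21 was at 0. The summed CPM of the list was 624, 609.6 and 639.7 in controls and 699.8, 789.9 and 858.1 in Kdm1a-ifKO replicates 1, 2 and 3. The groups were apart, and the Kdm1a-ifKO libraries had the order seen for C1q. That order was not particular to microglia. The summed lists of activated microglia, astrocytes, oligodendrocytes, their precursors, and choroid plexus and ependyma shared it, for oligodendrocytes with 5266, 6592 and 6837 CPM. Those of reactive astrocytes, endothelial cells, mural and fibroblast cells, blood cells and neurons did not. The number of microglia genes called fell to 2 without Kdm1a-ifKO replicate 3, to 4 without control replicate 1 or 2 and to 5 without Kdm1a-ifKO replicate 2. It rose to 14 without a filter on low counts.

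Set against the microglia list in each library, the mean log2 CPM of the C1q chains exceeded that of the list by 1.08, 0.91 and 1.01 in controls and by 0.89, 1.04 and 1.14 in Kdm1a-ifKOs. The means, 1.00 ± 0.09 and 1.02 ± 0.13 (SD, n = 3 each), differed by 0.03, less than the spread between mice, while the list itself differed by 0.34 on the log2 scale. C4b exceeded the list by 1.04, 1.01 and 1.03 in controls and by 1.32, 1.23 and 1.80 in Kdm1a-ifKOs, a difference of 0.42 with the groups apart. C3ar1, also a gene of microglia, differed by -0.18 relative to the list, with the groups overlapping. No test was run on these values, and the part of the number of microglia in the C1q values was not tested.

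**Figure D4:**
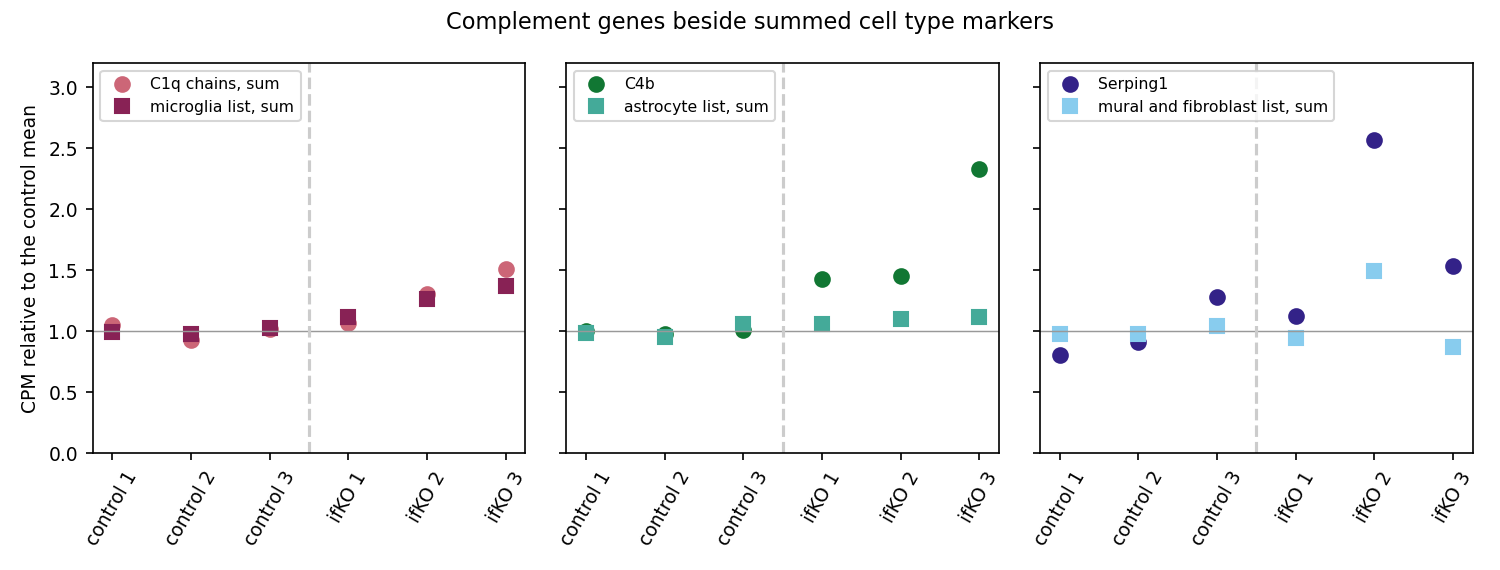
CPM relative to the control mean (vertical axis from 0) in each library for the summed C1q chains beside the summed microglia list, C4b beside the astrocyte list and Serping1 beside the mural and fibroblast list. C1q and the microglia list have the same order of the Kdm1a-ifKO libraries, an order that C4b and the astrocyte list share. C4b in Kdm1a-ifKO replicate 3 lies far above the astrocyte list. Serping1 and the mural and fibroblast list are both highest in Kdm1a-ifKO replicate 2.

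Astrocyte markers moved the same way. All 12 had a log2FC above 0 (median 0.16), and Sox9 (0.38), S100b (0.26), Slc1a3 (0.22) and Aldoc (0.20) passed the threshold. This number fell to 1, Sox9, without control replicate 2 or Kdm1a-ifKO replicate 3, and to 2 without Kdm1a-ifKO replicate 1. Their summed CPM was 5850 to 6540 in controls and 6530 to 6880 in Kdm1a-ifKOs, with the groups overlapping slightly. Of 14 tested genes of reactive astrocytes, counted without Serping1, 12 had a log2FC above 0 (median 0.15). By the test 2 were higher, Hspb1 (0.81) and Osmr (0.47). Of 14 tested genes of activated microglia, 12 also had a log2FC above 0 (median 0.33). By the test 2 were higher, Axl (0.35) and Apoe (0.30), and 1 lower, Lpl (-0.35). H2-Ab1 had the highest log2FC of that list (1.58, standard error 0.546) and did not pass (adjusted p = 0.121 in edgeR's test). Of the 12 listed excitatory neuron genes, 0 were higher, and Neurod6 was lower (-0.36). The part of any of these lists in the difference in C4b was not tested.

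The summed mural and fibroblast markers were highest in the library in which Serping1 was highest. Their CPM was 293.6, 293.2 and 312.7 in controls and 283.9, 449.5 and 261.9 in Kdm1a-ifKOs, highest in replicate 2. Genes of fibroblasts, meninges and smooth muscle carried this sum, among them Igf2 (88.6 CPM in that library against 20.5 to 38 CPM in the others), Acta2 (44.5 against 16.4 to 20.2 CPM) and Col1a2 (26.7 against 5.86 to 11.2 CPM). The pericyte genes Rgs5 (118 CPM in that library against 111 to 121 CPM), Abcc9 (9.39 against 8.79 to 11.4 CPM) and Kcnj8 (3.71 against 3.14 to 4.5 CPM) lay within the range of the others, and Dcn was close to it (64.9 against 23.2 to 62.7 CPM). None of the 12 listed genes was at 0, 9 had a log2FC above 0, and 1 was higher by the test, Pdgfrb (log2FC 0.39). The summed endothelial list was likewise highest in that library, at 478.3 CPM against 362.2 to 400.1 CPM in the others. So were the reactive astrocyte list, counted without Serping1 (217.5 against 160.5 to 194.5 CPM), and the blood cell list (51.88 against 29.68 to 49.26 CPM). The fluid-phase regulator Vtn had its highest value there too, 103 CPM against 64.4 to 66.5 CPM. The part of any of these cell types in the Serping1 values was not tested.

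The genes whose centred log2 CPM was most like the mean of the C1q chains over the 6 libraries, among 15264 genes with at least 1 CPM, were Selplg, Ctss, Ikzf1, Arhgap45 and Itgam. Their root mean square difference from C1q was 0.0469 to 0.0548, against a median of 0.27 over all genes compared. Selplg and Ctss are in the microglia list, Itgam is a complement receptor chain, and Csf1r and Tmem119 ranked 8 and 9. For C4b the nearest were P2rx5, an ATP-gated channel, Acot5, Alox12b, a lipoxygenase, Hpdl and Tcp11, with differences of 0.0831 to 0.127 against a median of 0.463. None of the first 10 for C4b was in the microglia or astrocyte list. Of those first 5, P2rx5 (log2FC 0.83), Alox12b (0.77) and Hpdl (0.80) passed the threshold in edgeR's test. The measure of likeness includes the difference between genotypes. A log2FC near that of C4b therefore followed from the choice of these genes and is no separate result.

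The C1q cluster lies 277 kb from Kdm1a on the same chromosome, so the genes around it were examined. Within 500 kb, 9 genes other than the C1q chains were tested, and apart from Kdm1a itself 1 was called, Wnt4, a secreted signalling protein. The shares over all tested genes were 6.04% higher and 2.82% lower. Wnt4 rose from 13.5 ± 0.42 to 24.7 ± 1.4 CPM (SD, n = 3 each; log2FC 0.87, standard error 0.0797, adjusted p = 1.11e-05), with the groups apart, and lies 379 kb from the cluster on the side away from Kdm1a. The direct neighbours of the cluster were Ephb2 (log2FC -0.01, adjusted p = 0.943), the 1 tested protein-coding gene between Kdm1a and C1q, and Epha8 (-0.33, adjusted p = 0.361). Neither passed the threshold.

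Around the 10 members, 16 nearest tested protein-coding genes were no members, and 2 of these were called, both higher. Of all tested genes 6.04% were called higher and 2.82% lower. Tnxb, an extracellular matrix protein gene 8.56 kb from C4b and on the opposite strand to it, stood at 33.4, 32.3 and 33.6 CPM in controls and at 71.7, 53.5 and 64.4 CPM in Kdm1a-ifKOs (log2FC 0.93, standard error 0.0951, adjusted p = 0.000131). Tnxb was highest in Kdm1a-ifKO replicate 1, whereas C4b was highest in replicate 3. On the other side of C4b, Stk19 had a log2FC of 0.04 (adjusted p = 0.798). Ube2l6, which encodes an enzyme of the ISG15 pathway 23.4 kb from Serping1, rose from 3.08 ± 0.35 to 4.66 ± 0.514 CPM (SD, n = 3 each; log2FC 0.59, standard error 0.167, adjusted p = 0.0425). C1ra beside C1s1, C5ar2 beside C5ar1, Ehmt2 and Nelfe beside C2, Gpr108 and Tnfsf9 beside C3, and Foxj2 and Necap1 beside C3ar1 did not pass (lowest adjusted p = 0.141, Ehmt2).

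**Figure D5:**
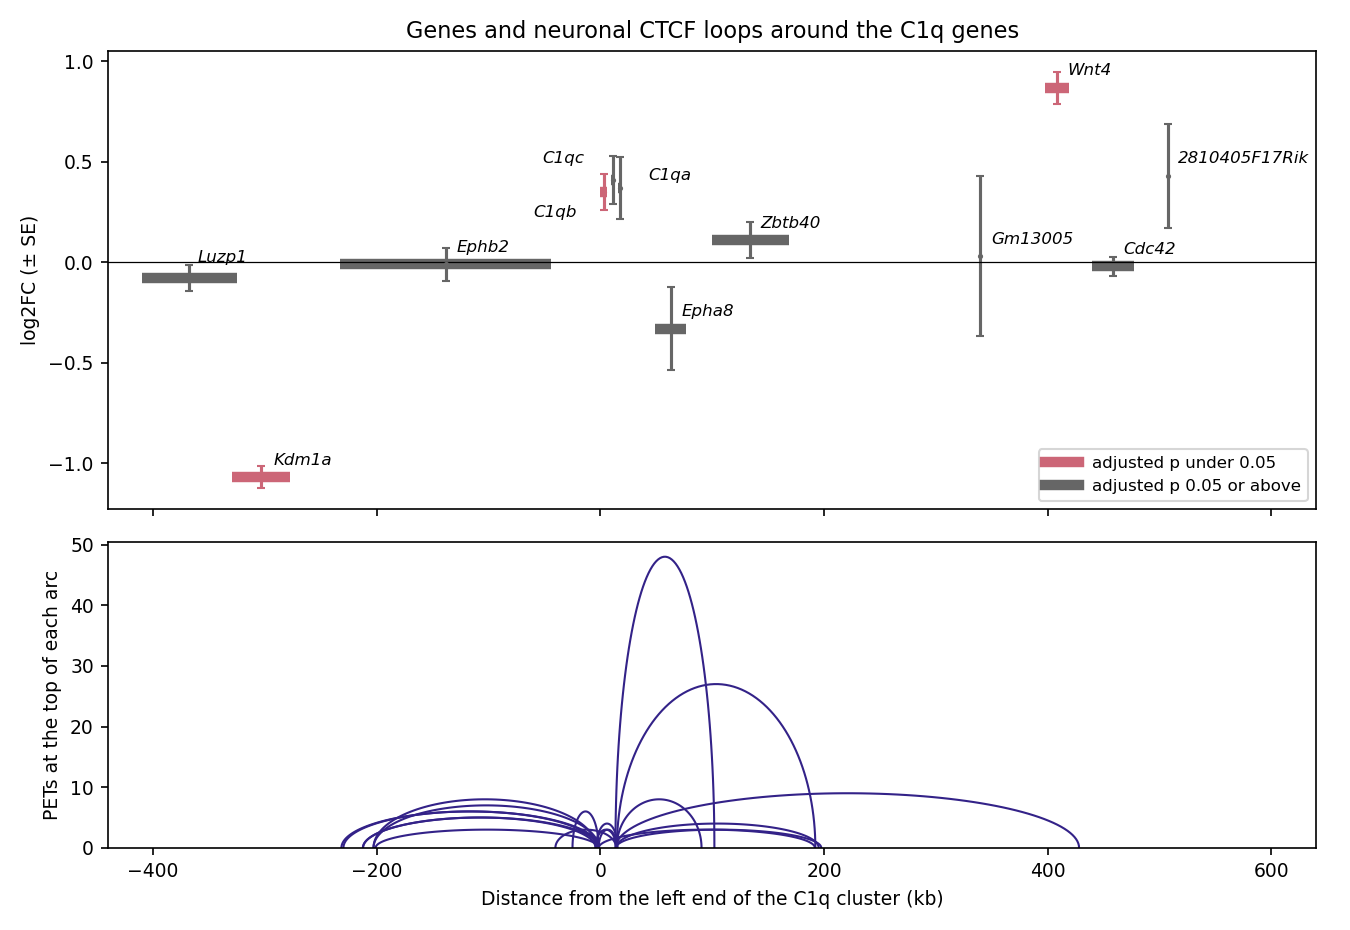
Top, log2FC (± standard error) of the C1q genes and of the 9 other tested genes within 500 kb, drawn at the extent of each gene by distance in kb from the left end of the C1q cluster, red where the adjusted p-value was under 0.05. Bottom, CTCF loops of neuronal nuclei with an anchor within 10 kb of the cluster, with PETs as the height of each arc and 1 loop with a span of 846 kb left out, in which the highest arc (48 PETs) ends at Zbtb40 and 1 arc of 9 PETs ends beside Wnt4.

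CTCF ChIA-PET counts paired-end tags (PETs) that join 2 sites bound by the architectural protein CTCF. It was available as 27786 loops from 1 library of sorted nuclei of hippocampal excitatory neurons. The animals, which the paper calls WT, were not the control littermates used for RNA. By the paper's methods such nuclei came from young adult mice that carry the Camk2a-driven recombinase and a Sun1-GFP tag, 1 month after tamoxifen. The loops thus describe neurons, not the microglia that make C1q, and have no replicate and no Kdm1a-ifKO counterpart among the data used here. Of the 10 complement genes 7 had a loop anchor within 10 kb, against 56.9% of tested genes with a position, and 38 loops were involved. C4b, C3ar1 and Serping1 had none, their nearest anchors being 12.5, 12.1 and 22.4 kb away. The C1q cluster had 20 of the 38 loops, with its main anchor between C1qc and C1qa. The strongest, of 48 PETs, joined chr4:136891416-136895939 to chr4:136980251-136984098 at Zbtb40, 88.5 kb apart, and the next, of 27 PETs, spanned 178 kb. On the other flank, 8 loops of 3 to 8 PETs ended within 10 kb of Ephb2. A loop of 9 PETs and 414 kb ended 7.71 kb from Wnt4. There was no loop anchor within 10 kb of Kdm1a, and 0 loops joined it to the cluster. The whole cluster lay inside 14 loops of at most 4 PETs, and 7 of these also held Kdm1a. The strongest loop at C3 had 29 PETs and that at C5ar1 52 PETs, while those at C1s1 and C2 had at most 11 and 6 PETs.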

How the data were processed

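RNA-seq of the hippocampus of 3 control and 3 Kdm1a-ifKO male mice, 1 library per mouse, was used. The authors trimmed single-end poly-A reads with cutadapt 1.18, aligned them to GRCm38/mm10 with HISAT2 2.1.0, filtered on mapping quality and nuclear chromosomes, and counted with HTSeq 0.11.1. The deposited values are raw read counts per Ensembl gene, and the strand setting is not given in the sources used here, so overlapping genes are uncertain. The authors made the loop counts (PETs) with ChIA-PIPE, keeping loops with 3 or more PETs whose anchors both held a CTCF peak. Everything else was computed here. Counts were tested with edgeR 4.0.16 under R 4.3.3 (filterByExpr, TMM, robust quasi-likelihood F test), with Benjamini-Hochberg adjustment over 16799 genes and a threshold of 0.05, and tested on simulated data. Standard errors are the log2FC over the root of F. Symbols and positions came from GENCODE M21, which held 48349 of the 48795 genes. TPM used summed exon lengths, and log2 CPM beside microglia a pseudocount of 0.05. Alternatives were DESeq2 1.42.0, other scalings and filters, a replicate block, each library left out, stricter thresholds and other loop rules. The members, the lists of genes and the tests were chosen with earlier results of these data known. Named are all members, listed genes with an adjusted p-value under 0.05, the extremes of each list, genes near the C1q cluster, nearest neighbours and genes of like pattern. A few genes outside this rule (C4a, C1ra, Cfp, Cfb, Cfd, C8g, Hc, Itgam, Itgb2, Csmd3, Sez6l, Sez6l2, Vtn, Igf2, Acta2, Col1a2, Rgs5, Abcc9, Kcnj8 and Dcn) are named for their role and were chosen after their values were seen. Results for a few listed genes are not reported here. Tables were handled in Python 3.11.15 with numpy 2.4.6 and pandas 2.3.3.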

Additional observations from a re-analysis of the deposited data

How the results depend on the processing

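The number of complement genes called higher was 1 in edgeR and rested on the test chosen. It was 5 with DESeq2, 3 without a filter on low counts, 3 with the replicate block and 0 with a log2FC beyond 0.5, and ranged from 0 to 3 with 1 library left out (3 without Kdm1a-ifKO replicate 1, which were C1qa, C1qb and C1qc, 1 without Kdm1a-ifKO replicate 3, which was C4b, and 0 without any other). Of all genes tested, 6.04% were called higher in edgeR, 5.12% with DESeq2 and 5.03% without the filter. Such shares were not computed for the other settings, so shifts there cannot be told from a general change in the number of calls. The replicate block called C1qb, C1qc and C4b, but replicate numbers did not pair the mice (correlations of deviations of -0.0316, -0.0886 and -0.144 for the same number), so the samples share only a number. Other complement genes called higher numbered 0 with a log2FC beyond 0.5 and 0 to 1 with 1 library left out, and 2 were called lower without a filter on low counts (Cd46 and Csmd3). The number of complement genes called lower was 0 in every alternative, and the log2FC of Kdm1a ranged from -1.09 to -1.05 when single libraries were dropped. The sign of the log2FC turned with 1 library left out for C1s1 (-0.09 to 0.15), C2 (-0.45 to 0.17), C3 (-0.86 to 0.08) and C5ar1 (-0.23 to 0.59), none of them called, and C3ar1 ranged from 0.04 to 0.39. By CPM in place of TPM, 4 of the 10 genes kept their rank. Loops at the members numbered 12 with an anchor on the gene body, 18 with at least 5 PETs and 6 with at least 10 PETs, in place of 38. The causes of these shifts were not tested. The 6 libraries limit the precision, and the low counts of C1s1, C2, C3 and C5ar1 limit it further.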

Other observations

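Among the genes of oligodendrocyte precursors, 8 of 8 were tested and 1 passed the threshold, C1ql1, which encodes a secreted synaptic organizer with a C1q-like domain and is no part of the complement cascade. It stood at 7.63, 9.29 and 6.02 CPM in controls and at 14.7, 14.7 and 16 CPM in Kdm1a-ifKOs (log2FC 0.98, standard error 0.134, adjusted p = 0.000507 with edgeR). Vcan had the lowest log2FC of that list (-0.16). Of the 12 oligodendrocyte genes 0 passed, with log2FC from -0.07 (Cldn11) to 0.15 (Mbp), and of the 12 endothelial genes 0 passed, with log2FC from -0.15 (Kdr) to 0.44 (Vwf). Of the 12 interneuron genes 0 were higher and 2 lower, Vip (-0.46) and Npy (-0.31). Of 9 tested genes of choroid plexus and ependyma, Kl was higher (1.28) and 0 were lower, while Ttr, the most abundant transcript of choroid plexus, stood at 32, 10.7 and 7.04 CPM in controls and at 3.29, 6.24 and 8.16 CPM in Kdm1a-ifKOs. Of 6 tested genes of blood cells 0 passed. Lcn2, a gene of reactive astrocytes that the filter on low counts left out, had 2, 44 and 2 counts in controls and 1, 183 and 8 in Kdm1a-ifKOs, so that control replicate 2 and Kdm1a-ifKO replicate 2 held most of them.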
